A study of Mus musculus with 2 samples.

Results

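The Mir34 and Mir449 family consists of 6 microRNA genes in the mouse, Mir34a, Mir34b, Mir34c, Mir449a, Mir449b and Mir449c. They were picked by gene symbol from the 1973 microRNA genes counted in small RNA libraries of newborn liver, and all 6 had an entry. The libraries, with inserts below 30 bases, came from total RNA of the livers of 2 pups of strain B6NCrl at postnatal day 0, without any treatment or genetic change named in the labels. Both pups were from 1 pregnant female and their sex was not collected, so the series holds 1 group with 2 biological replicates, and no second tissue, age or condition. Replicate 1 (pup 1) gave 3422622 counts on microRNA genes and replicate 2 (pup 2) gave 4538427. Levels are counts per 1000000 of these counts (CPM), as mean ± SD over n = 2 pups, and intervals are exact Clopper-Pearson or exact binomial intervals at 95%, which describe the counting error alone and not PCR duplication, as the reads carry no molecular identifiers that the labels name.

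MicroRNAs guide Argonaute proteins to messenger RNAs, chiefly through the seed, bases 2 to 8 counted from the 5′ end. The Mir34 and Mir449 genes form 1 family because their 5p arms carry the same seed. Mir34a is a well-known direct target of the tumour suppressor p53 and represses genes of cell cycle progression and survival, and in liver it is known for rising with age and in steatosis. The Mir34b/c and Mir449 clusters are typical of tissues with multiciliated cells, such as airway, oviduct and the lining of the brain ventricles, and of testis, where the family is needed for building motile cilia. Hepatocytes carry no motile cilia, and bile duct cells carry a primary cilium.

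The mature sequences show what the members share and where they part. The seed is in capitals, and the sequences are those of RefSeq on GRCm38.p6, the assembly that mm10 names.
miR-34a-5p: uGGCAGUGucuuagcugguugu
miR-34b-5p: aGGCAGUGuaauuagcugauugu
miR-449a-5p: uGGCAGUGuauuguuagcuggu
miR-449c-5p: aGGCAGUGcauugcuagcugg
For Mir34c the whole hairpin is shown, with the same 7 bases in capitals at positions 14 to 20.
Mir34c hairpin: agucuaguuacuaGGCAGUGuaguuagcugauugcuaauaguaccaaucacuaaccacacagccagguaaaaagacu
miR-34c-5p and Mir449b have no entry in that table. Among its 1738 mature microRNAs, the seed GGCAGUG occurred in 4, the 5p arms of Mir34a, Mir34b, Mir449a and Mir449c, and in none outside the family.

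Read base by base from the 5′ end without gaps, seed included, the 5p sequences compared matched at fewer positions between loci than within them. An inserted or missing base puts all later bases out of register in such a count. No comparison with gaps was made, so these counts do not rank the loci by likeness. In this count miR-34a-5p matched miR-449a-5p at 15 of 22 positions, miR-449c-5p at 12 of 21 and miR-34b-5p at 11 of 22. Within the clusters, miR-449a-5p and miR-449c-5p were identical at 18 of 21 positions, and miR-34b-5p matched the Mir34c hairpin, lined up at the seed, at 21 of 23. The Mir34c hairpin matched miR-34a-5p at 11 of 22 positions. Mir449b was not compared. The 3p arms did not follow the family: those of Mir34b and Mir34c shared the seed AUCACUA with each other, and those of Mir34a, Mir449a and Mir449c each had a seed found in no other entry. These 3p arms are shown for the pair that shares a seed.
miR-34b-3p: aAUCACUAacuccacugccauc
miR-34c-3p: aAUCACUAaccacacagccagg
Each count covers a whole hairpin, so the 5p and 3p arms cannot be told apart in the levels that follow. No member shared a stretch of 20 bases with any other of the 2201 microRNA hairpins in the annotation, and the longest shared stretch was 14 bases, between Mir449a and Mir679. The stretch that any member shares with sequence outside microRNA hairpins was not examined here. Opposite-strand counts were 0 at all 6 genes in both libraries.

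The members lie at 3 loci of mm10. Mir34a (ENSMUSG00000065493.1) is on chromosome 4 at 150068454 to 150068555, plus strand, and the last 17 bases of its hairpin overlap an exon of Gm37795, a provisional gene model on the same strand. Mir34b (ENSMUSG00000065492.1, chromosome 9, 51103562 to 51103645) and Mir34c (ENSMUSG00000065587.1, 51103034 to 51103110) are on the minus strand with 451 bases between them. Both fall in an intron of 1 transcript of Btg4, which runs on the opposite strand and encodes a factor of messenger RNA decay known from oocytes. Mir449c (ENSMUSG00000076146.1, chromosome 13, 113035983 to 113036091), Mir449b (ENSMUSG00000078027.1, 113037419 to 113037498) and Mir449a (ENSMUSG00000065575.1, 113037534 to 113037624) follow each other on the plus strand in an intron of Cdc20b, a gene of multiciliated cells. Mir449a and Mir449b are 35 bases apart, and Mir449b and Mir449c 1327 bases.

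The family was a minor part of the newborn liver's microRNAs, and Mir34a was its leading member. Mir449a and Mir34c were present at lower and similar levels, Mir34b was barely detected, and Mir449b and Mir449c were each seen as a single read. Together the members took 0.0196% of the counts in replicate 1 (672 counts; 0.0182% to 0.0212%) and 0.0183% in replicate 2 (832 counts; 0.0171% to 0.0196%). By comparison, Mir122, the hepatocyte microRNA, stood at 348624 ± 8931 CPM and Mir34a at 124 ± 8.48 CPM.

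Mir34a had 446 counts in replicate 1 and 537 in replicate 2. The level was 130 CPM (118 to 143) in the first pup and 118 CPM (109 to 129) in the second. The pups were close and their intervals overlapped. Mir34a ranked 169 in replicate 1 and 172 in replicate 2, and 169 by the mean level. The median was 160 CPM over the 312 genes that reached 10 counts in each library, so Mir34a lay somewhat below the middle of the well-detected genes.

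In the Mir34b/c cluster, nearly all reads came from Mir34c. Mir34c had 110 and 123 counts in replicates 1 and 2, or 32.1 CPM (26.4 to 38.7) and 27.1 CPM (22.5 to 32.3), a mean of 29.6 ± 3.56. Mir34b had 5 counts in each library, or 1.46 CPM (0.474 to 3.41) and 1.10 CPM (0.358 to 2.57). Mir34c therefore exceeded Mir34b 22-fold (9.15 to 69.1) in replicate 1 and 24.6-fold (10.3 to 77.1) in replicate 2. The values of the genes did not overlap in either pup, and the difference was far larger than the spread between pups.

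The Mir449 cluster had a similar shape, with 1 gene carrying it. Mir449a had 110 and 166 counts in replicates 1 and 2, which made 32.1 CPM (26.4 to 38.7) and 36.6 CPM (31.2 to 42.6), a mean of 34.4 ± 3.14. Mir449b had 0 counts in replicate 1 and 1 in replicate 2, and Mir449c had 1 and 0. The limit that a count of 0 allows, 3 counts, was 0.877 and 0.661 CPM in the 2 libraries, so both genes were at or under what this depth could show. Over both libraries Mir449a had 276 counts against 1 for Mir449b, a ratio of 276 (49.1 to 10940), and the ratio to Mir449c had the same value and interval. A single read is no measure of a level, and Mir449b and Mir449c were not separated from each other.

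**Figure D1:**
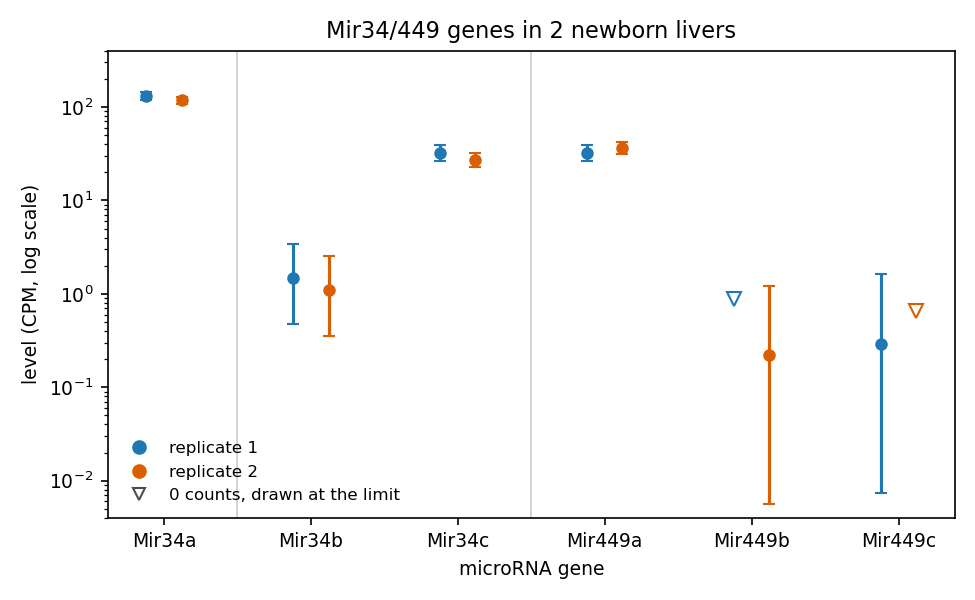
Level of each of the 6 family genes in CPM (log scale) in replicate 1 (blue) and replicate 2 (orange), with bars for the exact 95% counting interval; open triangles mark 0 counts, drawn at the limit of 0.877 or 0.661 CPM. Mir34a stands at 130 and 118 CPM, Mir449a and Mir34c between 27.1 and 36.6 CPM, and the other genes below 2 CPM.

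Mir34a was higher than either ciliation-linked cluster, and also higher than both summed. The comparison is between loci and does not set a p53 target against genes free of p53. The action of p53 on the members was not tested. Mir34a exceeded the Mir34b/c sum 3.88-fold (3.15 to 4.80) in replicate 1 and 4.20-fold (3.45 to 5.13) in replicate 2, a mean of 4.04 ± 0.224. Against the Mir449 sum it was 4.02-fold (3.26 to 4.99) and 3.22-fold (2.70 to 3.85) higher, a mean of 3.62 ± 0.567. Against both clusters together the ratio was 1.97 (1.68 to 2.33) and 1.82 (1.58 to 2.11). Mir34a thus supplied 66.4% of the family's counts in replicate 1 (62.7% to 69.9%) and 64.5% in replicate 2 (61.2% to 67.8%). The Mir34b/c cluster supplied 17.1% and 15.4%, and the Mir449 cluster 16.5% and 20.1%. Every interval of the Mir34a ratios lay above 1 in both pups. With 2 pups the smallest two-sided p of an exact sign-flip permutation test is 0.5, and none is given here. Each value is a ratio of reads, to be read against its interval and its SD. Neither covers a difference between microRNAs in how readily each enters a library, which was not tested.

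The clusters on chromosomes 9 and 13 were not separated from each other. The Mir449 sum was 0.965 times the Mir34b/c sum in replicate 1 (0.737 to 1.26) and 1.30 times in replicate 2 (1.03 to 1.66). Mir449a and Mir34c had 110 counts each in replicate 1, whereas in replicate 2 Mir449a was 1.35-fold higher (1.06 to 1.72). The order of the levels was therefore Mir34a, then Mir449a and Mir34c without a resolved order, then Mir34b, Mir449b and Mir449c. Mir34b had the most counts of these last genes, but its counting intervals overlapped theirs in both pups. Over both libraries Mir34b, Mir449b and Mir449c had 10, 1 and 1 counts. No ratio of Mir34b to Mir449b or Mir449c was computed, so their order was not tested. The step from Mir34a to Mir449a was 3.64 ± 0.580-fold and that from Mir34a to Mir34b was 98.3 ± 12.9-fold. In a whole liver, fewer cells with a microRNA and less of it per cell cannot be told apart.

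**Figure D2:**
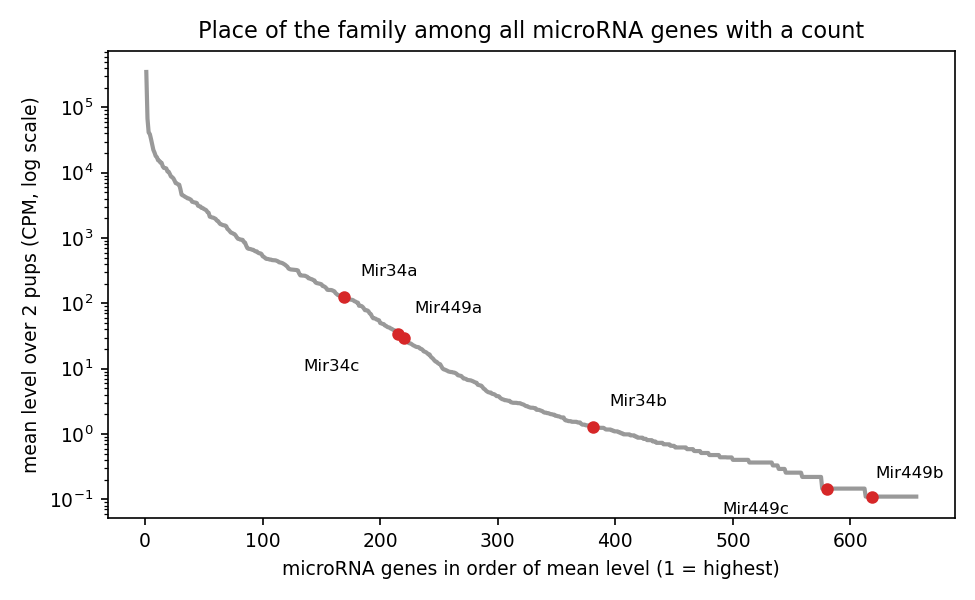
Mean level over the 2 pups (CPM, log scale) of the 656 microRNA genes with a count in either library, in descending order (grey line), with the 6 family members in red. Mir34a is at rank 169, Mir449a at 215, Mir34c at 220 and Mir34b at 381, and Mir449b and Mir449c lie on the steps formed by genes with a single count.

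Across the whole table, the genes nearest to Mir34a in mean level over the 2 libraries were Mir669l (126 ± 6.76 CPM) and Mir412 (124 ± 16.4 CPM) above it, and Mirlet7a-2 (124 ± 28.3 CPM) and Mir196b (121 ± 8.97 CPM) below it. These neighbours were picked for nearness in level, so their likeness to Mir34a was fixed by the choice. Around Mir449a the nearest genes, picked in the same way, were Mir141 (37.5 ± 2.29 CPM) and Mir194-1 (33.0 ± 2.10 CPM). Around Mir34c they were Mir326 (30.0 ± 9.85 CPM) and Mir708 (28.8 ± 1.04 CPM). Mir669l, Mirlet7a-2, Mir194-1 and Mir708 share 20 bases with other microRNA hairpins and may be undercounted, because reads at several loci are on no gene.

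An uneven pair of neighbours was common among microRNA genes. Pairs next to each other on 1 strand, with at most 2000 bases between them and at least 100 counts in all, numbered 107. With any lower count under 3 set to 3, the higher gene exceeded the lower by a median of 15.3-fold (quartiles 3.45 and 107). In 57 pairs without a stretch shared with another hairpin, the median was 8.46-fold (quartiles 3.46 and 51.0). The Mir34c over Mir34b ratio of 23.3 from both libraries ranked 48 from the top, and the Mir449a over Mir449b ratio, 92.0 on this scale, ranked 28. At least 20-fold differences were found in 47.7% of all pairs and in 36.8% of the pairs without a shared stretch. The ratio of Mir34c to Mir34b lay between the quartiles of both sets of pairs. That of Mir449a to Mir449b lay between the median and the upper quartile of all pairs and above the upper quartile of those without a shared stretch. With 276 counts for Mir449a and the lower count set to 3, 92.0 was the highest value that this pair could reach. Its place among the pairs therefore reflects the depth of Mir449a and does not measure how uneven the pair is.

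**Figure D3:**
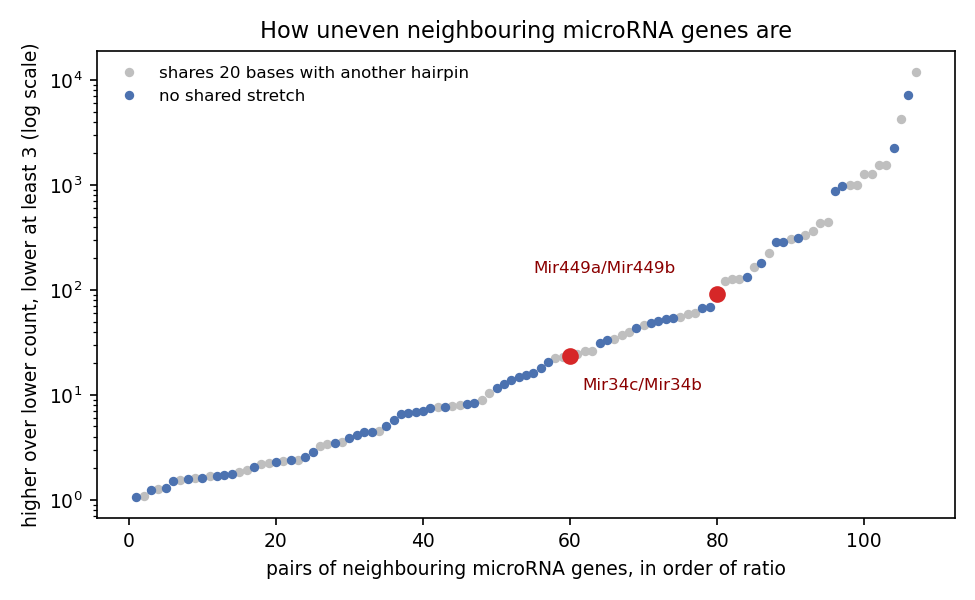
Ratio of the higher to the lower count (log scale, lower count set to at least 3) for 107 pairs of neighbouring microRNA genes, ordered by ratio; blue points are pairs without and grey points pairs with a stretch of 20 bases shared with another hairpin. The family pairs, in red, stand at 23.3 and 92.0, within the range of the other pairs. The value of 92.0 is the highest that the counts of Mir449a allow on this scale.

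The pups were then compared to see how steady the family was between littermates. Of the 6 genes, 4 had at least 10 counts over both libraries and entered the exact binomial test that was run on 390 genes, Mir34b with exactly 10. The test asks whether 2 libraries differ beyond counting error and says nothing of a condition. Mir34a had a log2 ratio of replicate 2 over replicate 1 of -0.14 (-0.32 to 0.05; exact binomial test, adjusted p = 0.295). For Mir34c it was -0.25 (-0.63 to 0.14; exact binomial test, adjusted p = 0.397). Mir449a leaned the other way, at 0.19 (-0.17 to 0.55; exact binomial test, adjusted p = 0.510). Mir34b, with 5 counts in each library, had -0.41 (-2.53 to 1.71; exact binomial test, adjusted p = 0.894), an interval too wide to place it.

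None of the 4 members was called by the exact binomial test with Benjamini-Hochberg adjustment, and 0 of them had an unadjusted p under 0.05. Over all tested genes 30.3% were called, and 25.0% of the 56 genes with 200 to 1000 counts over both libraries, a range that holds Mir34a, Mir34c and Mir449a. The edgeR negative binomial exact test, which takes the spread between the pups as noise, called 0 of the 4 members and 0.513% of all tested genes. Log2 ratios had a median size of 0.19 over all tested genes and 0.19 in that range of counts, and 0.22 over the 4 members. A p above the threshold does not show equality: the interval for Mir34a allows a fall of 0.32 on the log2 scale and that for Mir449a a rise of 0.55.

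**Figure D4:**
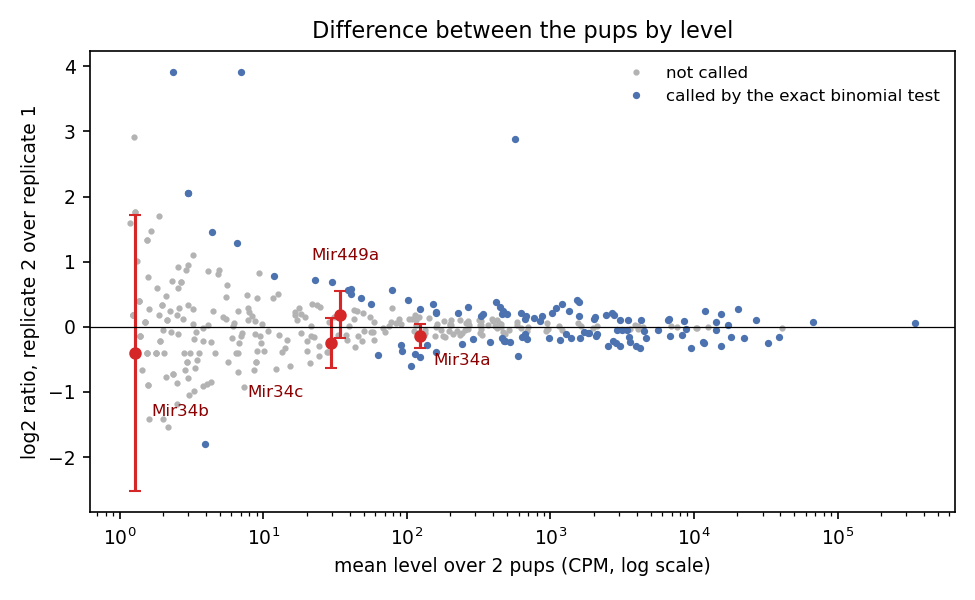
Log2 ratio of replicate 2 over replicate 1 against mean level (CPM, log scale) for the 390 tested microRNA genes; blue points were called by the exact binomial test, grey points were not, and the 4 tested family members are in red with exact 95% intervals. All 4 intervals cross 0, and that of Mir34b, from -2.53 to 1.71, is the widest of them.

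Other microRNAs tied to p53 were mostly far more abundant than Mir34a. The list held 11 genes outside the family that p53 is known to induce or whose processing it promotes, and all were in the table. Of these, 8 lay above Mir34a in mean level. They were led by Mir143 (14225 ± 555 CPM), a microRNA of smooth muscle and fibroblasts, by Mir192 (8746 ± 118 CPM), a liver-enriched one, and by Mir15a (4422 ± 0.496 CPM), which represses cell cycle genes. Below Mir34a were Mir141 (37.5 ± 2.29 CPM), Mir194-1 (33.0 ± 2.10 CPM) and Mir215 (9.67 ± 1.21 CPM), the partner of Mir192 in another cluster. Between the pups, 1 of the 11 was higher and 4 were lower in replicate 2 by the exact binomial test, beside 62 higher and 56 lower of the 390 tested genes (30.3% called). The negative binomial test called 0 of the 11. The median log2 ratio of the list was -0.12, beside 0.00 over all tested genes. The counts of Mir194-1, Mir194-2, Mir107 and Mir16-1 are uncertain, since each shares 20 bases with another hairpin.

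Other microRNAs of cilium formation were as scarce as Mir34b. Mir129-1, which together with its copy represses a cap protein of the centriole, had 7 and 10 counts (2.12 ± 0.112 CPM), and Mir129-2 had 2 and 6 counts (0.953 ± 0.522 CPM). Each shares 20 bases with 2 other hairpin loci, so reads that fit more than 1 locus are missing from these counts. With 7 and 10 counts, Mir129-1 was the 1 gene of this list of 2 that could be tested, and it was not called (30.3% of all tested genes were).

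Epithelial microRNAs were present at higher levels, and the cells that their reads came from were not tested. The 7 genes of the list had summed levels of 7966 and 7662 CPM, led by Mir429 (4491 ± 130 CPM), Mir200b (1634 ± 6.16 CPM) and Mir203 (975 ± 83.3 CPM). Of these, 5 exceeded Mir34a. The summed level of the Mir34b/c and Mir449 clusters was 66.0 CPM in replicate 1 and 65.0 CPM in replicate 2. Between the pups 0 of the 7 were higher and 2 were lower in replicate 2 by the exact binomial test, a share of 28.6% beside 30.3% of all tested genes, and the negative binomial test called 0 of the 7.

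The tissue label was set beside marker microRNAs, from lists chosen with earlier results of these data known. Hepatocyte markers summed to between 354833 and 366907 CPM. Mir126a, the endothelial marker, stood at 65978 and 69174 CPM in replicates 1 and 2. Mesenchymal markers summed to 14984 and 15778 CPM, leukocyte markers to 8682 and 7955 CPM and erythroid markers to 5251 and 5096 CPM. Among these, Mir126a, Mir451a and Mir199a-1 share 20 bases with other hairpins. Of 6 neural markers in the table, 4 were at 0 in both libraries, and of 4 muscle markers 3 were at 0. Mir137, the 1 neural marker without a copy, was detected at 18.2 ± 1.73 CPM. The markers at 0 share 20 bases with other hairpins, so their reads may be among those mapped to several loci, 25.2% and 24.7% of all reads. The remaining muscle marker, Mir206, stood at 136 CPM in the first pup and at 1004 CPM in the second. Its log2 ratio of replicate 2 over replicate 1 was 2.88 (2.74 to 3.02). Mir206 was 1 of the 2 genes called by the edgeR negative binomial exact test. The source of this difference between the pups was not tested. The pancreatic markers summed to 1947 and 2112 CPM, nearly all of it Mir375 (2004 ± 113 CPM), with Mir217 at 23.5 ± 3.87 CPM and Mir216a at 2.09 ± 0.474 CPM. No independent marker list of multiciliated cells was available, since the Mir34b/c and Mir449 genes are themselves their usual microRNA markers, and the cells that the reads of these clusters came from were not tested.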

How the data were processed

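MicroRNA sequencing of 2 newborn livers was used, 1 library per pup. The authors deposited raw counts for each microRNA gene (mm10, GENCODE M4, as their accompanying text states). The sources used here do not give the aligner, counter or trimming. A file has 3 count columns without a header (without strand, gene strand, opposite strand), told apart by their sums. Gene-strand counts were used. Reads on no gene, 8.87% and 9.92% of uniquely mapped reads, stayed out of library sizes.

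Symbols were taken from GENCODE M21, also on mm10 (1894 of 1973 identifiers matched), and sequences from RefSeq; hairpins were found for 5 of the 6 members. Ratios between genes were computed within each library. Between the pups, a two-sided exact binomial test was run on the 390 genes whose summed count reached 10, with Benjamini-Hochberg adjustment at 0.05 over all of them (scipy 1.17.1). Alternatives used edgeR 4.0.16 and DESeq2 1.42.0 in R 4.3.3. A quasi-likelihood test needs a second group and was not run. Named were the members, up to 3 leading genes of each of 4 lists, the genes next to Mir34a in level, and marker and host genes. Other list genes, Mir679 and the genes next to Mir449a and Mir34c were named after their values were seen. The members and lists were chosen with earlier results of these data known, and the comparison of neighbouring genes was added after the data were seen.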

Additional observations from a re-analysis of the deposited data

How the results depend on the processing

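The ratios of Mir34a to the other members and clusters had the same values with counts made without regard to strand and with opposite-strand counts subtracted, since the members have none. The mean ratio to the Mir34b/c cluster was 3.88 to 4.20 with either pup alone, and that to the Mir449 cluster 3.22 to 4.02. Levels depend on the library total. Per uniquely mapped read, Mir34a stood at 113 CPM, Mir449a at 31.1 CPM and the family share at 0.0172%. With Mir122 left out of the total, Mir34a stood at 191 CPM, Mir34b at 1.96 CPM, Mir34c at 45.4 CPM, Mir449a at 52.8 CPM and the family share at 0.0291%, because the total is smaller by construction. The number of genes that differ between the pups fell from 118 with the exact binomial test to 2 with the edgeR negative binomial exact test, which adds the spread between pups to the counting error, and was 112 to 123 under the other alternatives. None of the 4 tested members was called under any alternative run. These runs are not independent checks, as all but the edgeR test repeat the exact binomial test on nearly the same counts. The edgeR test took its dispersion from the same 2 libraries that it compared, so it could hardly call a difference of usual size. The log2 ratios ranged from -0.14 to -0.11 for Mir34a, -0.41 to -0.38 for Mir34b, -0.25 to -0.22 for Mir34c and 0.18 to 0.21 for Mir449a. Depth limits Mir34b, Mir449b and Mir449c, whose levels rest on 10, 1 and 1 counts over both libraries. No paired analysis was possible because the series has 1 group.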

Other observations

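MicroRNAs known as brakes on the cell cycle or as marks of senescence, a role they share with Mir34a, spanned a wide range of levels. Of 9 listed genes, 7 had an entry, and Mir24-1 and Mir497 had none. Mir22 was by far the highest, at 27131 ± 1416 CPM, followed by Mir29a (682 ± 63.3 CPM) and Mir24-2 (242 ± 10.5 CPM), and 4 of the 7 exceeded Mir34a. In the exact binomial test 1 gene, Mir22, was higher in replicate 2 (log2 ratio 0.11, 0.09 to 0.12) and 2 were lower, Mir29a at -0.19 (-0.27 to -0.11) and Mir29c at -0.28 (-0.49 to -0.06). These are 42.9% of the 7 genes, beside 30.3% of all tested genes, and the edgeR negative binomial exact test called 0 of the 7. The median log2 ratio of the list was -0.09, beside 0.00 over all tested genes. Mir24-2, Mir29b-1, Mir29b-2 and Mir29c share 20 bases with another hairpin, and their counts are uncertain.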
